A study of Homo sapiens with 12 samples.

Results

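Fibronectin, fibrillin, collagens and the enzymes that crosslink them were followed through RNA sequencing of MCF10A, an immortal line of human breast epithelium that does not form tumours. The 10 genes FN1, FBN1, COL5A1, COL6A1, COL8A1, COL12A1, LOX, LOXL2, LOXL4 and TGM2 were taken by name from the 23459 gene rows of the count table. They were chosen with earlier results of these data known. All 12 libraries came from cells that carry a doxycycline-inducible allele of YAP5SA, a mutant of the coactivator YAP that escapes inhibition by the Hippo kinases, and that had also been infected with a JUN vector or with the empty vector. Cells received doxycycline at 100 ng/ml (Dox) or its solvent ethanol (EtOH), for 16 hours as the study's methods give it in general, so that there were 4 groups of 3 libraries, here called vector EtOH and vector Dox for the empty vector, JUN EtOH and JUN Dox for the JUN vector. The controls therefore carry the inducible allele too, doxycycline was not given to cells without it, and JUN came from a constitutive lentiviral vector in selected cells, so that the JUN groups differ from the vector groups by a whole transduced culture. The methods call the libraries of a group biological replicates but do not describe the separate cultures, and the p-values measure the spread between these libraries.

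Extracellular matrix is laid down as fibres. Fibronectin dimers are pulled into fibrils by integrins and serve as a template on which fibrillin microfibrils and collagens are deposited. Lysyl oxidases then oxidise lysines of collagen and elastin so that the chains crosslink covalently, and transglutaminase 2 links glutamines to lysines, fibronectin among its substrates. Several matrix genes are known as targets of YAP with its DNA-binding partners of the TEAD family, and AP-1, the dimer that JUN forms with FOS or with itself, is known to act at many of the same regions. The comparisons ask how the matrix genes respond to YAP5SA, to JUN, and to both together.

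The genes fell into separate patterns. FN1, FBN1, TGM2, COL6A1 and LOXL2 were higher with the JUN vector, whether or not YAP5SA was induced, by 1.64 to 7.97-fold. COL8A1 went the other way, 5.81-fold higher with YAP5SA in vector cells and lower with JUN. LOX was lower with YAP5SA in both kinds of cell, and COL12A1 was higher with YAP5SA in vector cells by a narrow margin. COL5A1 and LOXL4 were close to absent.

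Levels are given as CPM, which scales each count to a library size adjusted by TMM, and errors are standard deviations (SD) of the 3 libraries in a group. Fold changes and adjusted p-values are from edgeR's quasi-likelihood test over all 14775 genes that passed a filter on low counts, and a gene is called at an adjusted p under 0.05. Total counts ranged from 18594867 to 28993487 per library. JUN was at 47.59 ± 10.5, 189.7 ± 4.15, 1279 ± 187 and 1248 ± 92.3 CPM (SD, n = 3 each) in vector EtOH and Dox and in JUN EtOH and Dox, in this order, and YAP1, the row on which YAP5SA reads may also be counted, at 179.4 ± 10.5, 236.5 ± 31.5, 234.4 ± 20.9 and 279.9 ± 79.3 CPM. All 10 markers of basal mammary epithelium were tested and their summed level was 10590 to 11580, 5977 to 7626, 11270 to 12740 and 7608 to 10210 CPM in the 4 groups in that order. Of 10 fibroblast markers 7 were tested, with sums of 139.6 to 151.1, 147.5 to 184.3, 153.5 to 166.9 and 160.5 to 177.3 CPM and 2 or 3 of the 10 at or under the detection floor in each group. COL1A2, COL3A1 and THY1 were those not tested. With JUN without induction 3 of the 7 were called higher (median log2 0.15). The 3, named after their values were seen, were DCN, LUM and FAP (log2 1.56, 3.09 and 1.69). The other 4 were not called, PDGFRA, the most abundant of the 7, at -0.21, PDGFRB at -0.62, COL1A1 at 0.00 and ACTA2 at 0.15. Whether cells with these markers had a part in the results on matrix genes was not tested, and in bulk RNA fewer cells of a kind cannot be told apart from less RNA per cell. Luminal markers summed to 1419 to 1714 CPM in the vector libraries and 551.3 to 975 CPM in the JUN libraries. Of 8 immune and endothelial markers 3 were tested. The 8 together summed to 56.28 to 61.12, 22.94 to 24.52, 88.24 to 103.3 and 52.32 to 72.66 CPM in the 4 groups in the order above.

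The stretch of 250 bases before the annotated start is shown for FN1 and FBN1, whose levels were most alike over the 12 libraries, for LOX, which was lower with YAP5SA, and for COL12A1. RefSeq promoter windows on GRCh38.p14 were matched for 6 of the 10 genes. Each is written 5′ to 3′ on the strand of the gene. Capitals mark matches, on either strand, to the AP-1 motif TGANTCA, to the TEAD motif GGAATG and to the cyclic AMP response element TGACGTCA, which members of the JUN and ATF families bind as dimers. The third motif was added after the sequences had been read.
FN1, chr2:215436069-215436318, minus strand: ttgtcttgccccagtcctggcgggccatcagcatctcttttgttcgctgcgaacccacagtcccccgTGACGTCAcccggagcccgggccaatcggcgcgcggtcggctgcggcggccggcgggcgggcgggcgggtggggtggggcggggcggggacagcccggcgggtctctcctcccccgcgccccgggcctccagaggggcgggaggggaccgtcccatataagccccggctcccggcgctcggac
FBN1, chr15:48644971-48645220, minus strand: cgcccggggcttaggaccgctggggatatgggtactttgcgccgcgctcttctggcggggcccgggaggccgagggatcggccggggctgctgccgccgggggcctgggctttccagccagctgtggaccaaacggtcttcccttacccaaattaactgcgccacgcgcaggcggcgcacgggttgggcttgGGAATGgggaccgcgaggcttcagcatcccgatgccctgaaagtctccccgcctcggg
LOX, chr5:122078260-122078509, minus strand: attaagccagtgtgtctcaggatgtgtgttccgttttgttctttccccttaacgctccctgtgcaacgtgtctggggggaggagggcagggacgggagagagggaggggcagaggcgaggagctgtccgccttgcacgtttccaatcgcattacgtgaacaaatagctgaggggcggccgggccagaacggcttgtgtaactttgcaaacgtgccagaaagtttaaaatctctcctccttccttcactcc
COL12A1, chr6:75206054-75206303, minus strand: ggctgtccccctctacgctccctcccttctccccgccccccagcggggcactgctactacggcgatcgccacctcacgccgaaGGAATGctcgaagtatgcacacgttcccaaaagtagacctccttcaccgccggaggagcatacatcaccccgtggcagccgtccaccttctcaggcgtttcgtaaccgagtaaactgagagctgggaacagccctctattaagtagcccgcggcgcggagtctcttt
The FN1 window held the cyclic AMP response element once, starting 183 bases before the start site, as did 1.65% of all 35116 promoter windows of this length in the table. The TEAD letters stood once in FBN1, 58 bases before the start, and once in COL12A1, 167 bases before it. TEAD letters occurred in 11.9% of all windows. The AP-1 letters, present in 6.57% of all windows, were not found in these 4 stretches, which says only that the letters are not in these windows. The FN1 window was 76.4% GC, that of LOX 55.2%.

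**Figure D1:**
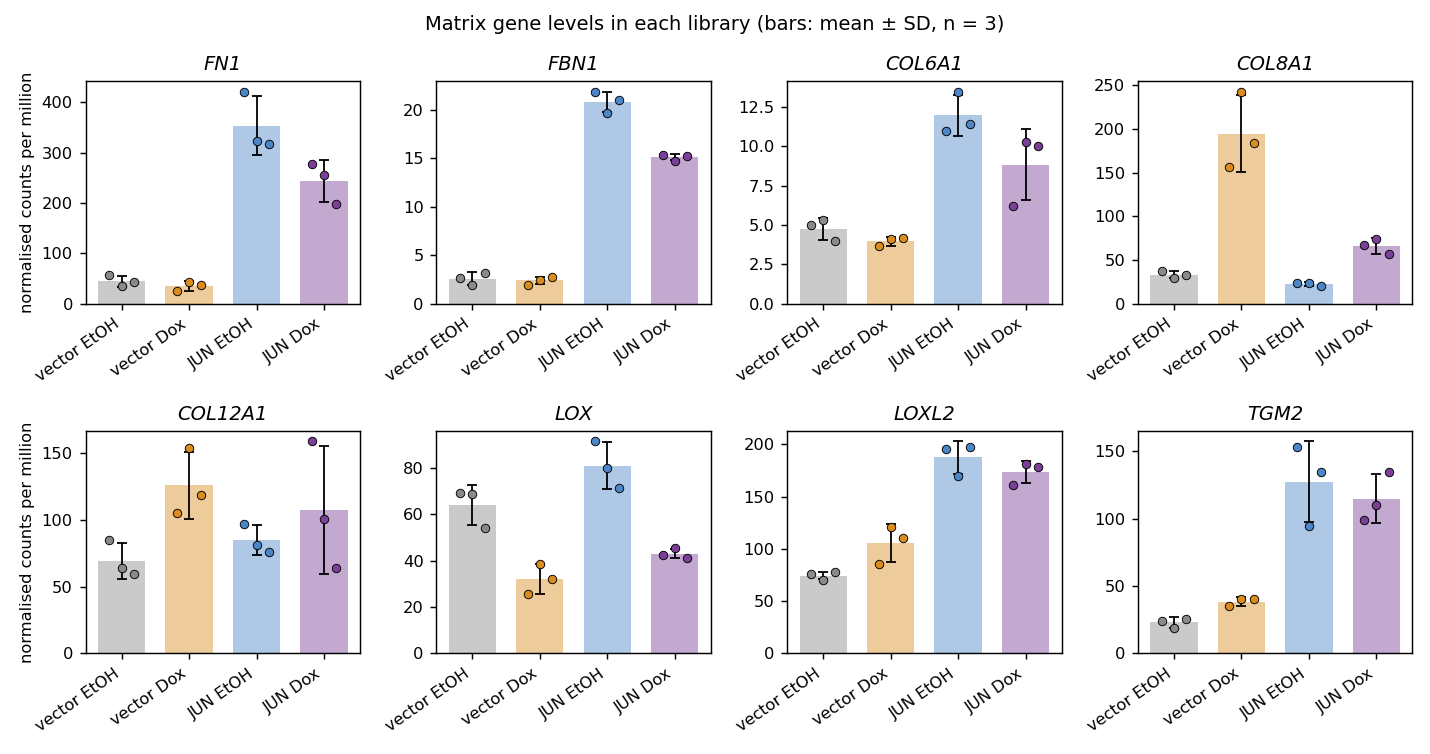
Level of 8 matrix genes in each library, in CPM (vertical axis, from 0), for the 4 groups on the horizontal axis. Points are libraries, bars the group mean and whiskers the SD (n = 3). FN1, FBN1 and TGM2 stand highest in JUN cells, COL8A1 in vector Dox, and LOX is lower in both Dox groups.

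Fibronectin (FN1, chr2:216225163-216300796 on GRCh37, minus strand) is the glycoprotein on which the fibrillar matrix is assembled. It was read at 57.07, 35.63 and 42.9 CPM in the vector EtOH libraries and at 24.59, 43.81 and 37.34 CPM in vector Dox. In JUN EtOH the libraries gave 421.4, 323.2 and 317.2 CPM, and in JUN Dox 277.6, 256.1 and 198.2 CPM. Every JUN library was above every vector library, and the vector groups overlapped each other. The JUN vector raised FN1 7.82-fold without induction (log2 fold change 2.97, SE 0.22, adjusted p = 1.45e-07) and 6.92-fold with it (log2 2.79, SE 0.22, adjusted p = 2.52e-07). YAP5SA gave a log2 difference of -0.36 in vector cells (95% interval -0.81 to 0.09, adjusted p = 0.218) and of -0.54 in JUN cells (-0.97 to -0.10, adjusted p = 0.0758), neither of which was called. The difference in JUN cells was called under DESeq2, with only the libraries of the comparison, with the GC trend removed and without vector Dox replicate 1, at an adjusted p of at least 0.0234.

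Fibrillin-1 (FBN1, chr15:48700510-48937918, minus strand) forms the microfibrils that carry elastin and store latent TGF-β. The libraries gave 2.7, 1.896 and 3.186 CPM in vector EtOH and 1.962, 2.479 and 2.768 CPM in vector Dox. With the JUN vector they gave 21.79, 19.72 and 20.98 CPM in EtOH and 15.35, 14.74 and 15.24 CPM in Dox. The 2 vector groups overlapped, while the JUN groups stood apart from them and from each other. FBN1 rose with JUN by 7.97-fold without induction (log2 2.99, SE 0.17, adjusted p = 8.68e-09) and by 6.27-fold with it (log2 2.65, SE 0.17, adjusted p = 2.79e-08). In JUN cells YAP5SA lowered it (log2 -0.46, SE 0.14, adjusted p = 0.0301). That call was lost without any 1 of 5 of the 6 libraries compared (each JUN EtOH library, JUN Dox replicates 2 and 3), at an adjusted p of at most 0.108. In vector cells the difference was -0.12 (95% interval -0.52 to 0.28, adjusted p = 0.686).

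Collagen VI, of which COL6A1 (chr21:47401684-47424964, plus strand) encodes a chain, makes beaded filaments around cells. COL6A1 was at 4.981, 5.339 and 3.994 CPM in vector EtOH and 3.663, 4.101 and 4.172 CPM in vector Dox. With the JUN vector the libraries gave 11, 13.48 and 11.45 CPM in EtOH and 6.221, 10.29 and 10.02 CPM in Dox. Both JUN groups lay above both vector groups, and JUN Dox replicate 1 was the lowest JUN library. JUN raised COL6A1 2.51-fold without induction (log2 1.33, SE 0.19, adjusted p = 7.69e-05) and 2.23-fold with it (log2 1.16, SE 0.19, adjusted p = 0.000297). Under YAP5SA the differences of -0.26 in vector cells (adjusted p = 0.354) and -0.43 in JUN cells (adjusted p = 0.101) were not called.

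COL8A1 (chr3:99357319-99518070, plus strand) encodes a chain of collagen VIII, a short-chain collagen of basement membranes and vessel walls. In vector EtOH it was at 37.64, 29.39 and 33.16 CPM and in vector Dox at 156.5, 242.4 and 183.7 CPM. With JUN the libraries gave 23.77, 24.23 and 20.28 CPM in EtOH and 66.62, 74.39 and 56.43 CPM in Dox. No 2 groups overlapped, with JUN EtOH lowest, then vector EtOH, JUN Dox and vector Dox. YAP5SA raised COL8A1 in vector cells by 5.81-fold (log2 2.54, SE 0.16, adjusted p = 2.99e-08) and in JUN cells by 2.89-fold (log2 1.53, SE 0.16, adjusted p = 7.88e-06). The induction in JUN cells was 0.497 times that in vector cells by the interaction term (log2 -1.01, SE 0.22, 95% interval -1.47 to -0.54, adjusted p = 0.0361). Across all genes the interaction was called lower for 0.826% and higher for 0.291%, and COL8A1 was the 1 member called among 8. The call was lost on leaving out any 1 of 8 of the 12 libraries (vector EtOH 2 or 3, vector Dox 2 or 3, JUN EtOH 1 or 2, JUN Dox 1 or 3), at an adjusted p of at most 0.117, with log2 values from -1.14 to -0.81 over the alternatives. JUN lowered COL8A1 with induction (log2 -1.56, SE 0.15, adjusted p = 2.57e-06) and, less firmly, without it (log2 -0.55, SE 0.16, adjusted p = 0.0129), where leaving out vector EtOH replicate 1 or JUN EtOH replicate 3 took the adjusted p to as much as 0.0572.

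COL12A1 (chr6:75794042-75915983, minus strand) encodes collagen XII, which sits on the surface of collagen I fibrils. It was at 84.95, 63.97 and 59.5 CPM in vector EtOH and 104.9, 153.8 and 118.9 CPM in vector Dox. The JUN EtOH libraries gave 97.31, 80.91 and 75.94 CPM and the JUN Dox libraries 158.9, 100.6 and 63.67 CPM. The vector groups did not overlap, and JUN Dox spanned nearly the whole range of the 12 libraries. YAP5SA raised COL12A1 in vector cells by 1.81-fold (log2 0.86, SE 0.25, adjusted p = 0.0175). The call was lost with no filter on low counts and without vector EtOH replicate 2, vector EtOH replicate 3 or vector Dox replicate 2, at an adjusted p of at most 0.0787. In JUN cells the log2 difference of 0.34 (95% interval -0.19 to 0.87, adjusted p = 0.37) was not called, and it was -0.05 without JUN Dox replicate 1 and as high as 0.615 over the other alternatives. JUN gave log2 differences of 0.285 without induction (adjusted p = 0.383) and -0.23 with it (adjusted p = 0.502), the latter called at an adjusted p of 0.0404 without JUN Dox replicate 1 and at a log2 of 0.04 without JUN Dox replicate 3.

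JUN Dox replicate 1 also stood out in how its gene levels ran with the GC content of exons. The correlation, across 14246 genes, of a library's deviation from the mean with exon GC content was -0.353 in that library. GC-poor genes were thus read relatively higher there. The correlation was 0.191 to 0.227 in vector EtOH, 0.002 to 0.014 in vector Dox and -0.109 to 0.059 in JUN EtOH. It was -0.193 and 0.005 in JUN Dox replicates 2 and 3, so that the trend also differed between groups. COL12A1, at 43.2% exon GC, was highest among the JUN Dox libraries in it, and COL6A1, at 64.0%, was lowest. FN1 and FBN1 were also highest in it, and LOXL2 and TGM2 also lowest. LOX, the member with the lowest exon GC content, was in between, at 42.54 CPM against 45.25 and 41.29 CPM. COL8A1 was in between too, at 66.62 CPM against 74.39 and 56.43 CPM. Whether the GC trend produced the values of single genes in this library was not tested. With the GC trend removed, COL12A1 differed by log2 0.31 under YAP5SA in JUN cells (adjusted p = 0.37), close to the 0.34 of the main fit. COL6A1 was then higher with JUN by 1.56 without and 1.30 with induction on the log2 scale (adjusted p = 3.19e-06 and 2.12e-05).

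**Figure D2:**
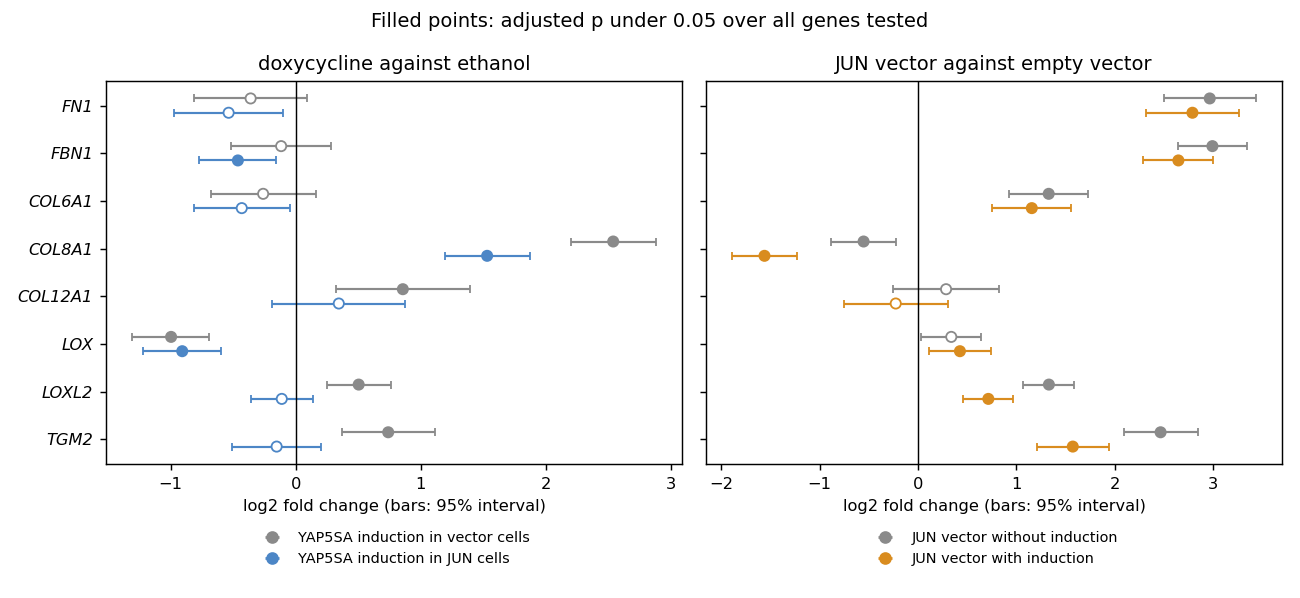
Log2 fold changes (horizontal axis) of 8 matrix genes, left for doxycycline against ethanol in vector cells (grey) and JUN cells (blue), right for the JUN vector against the empty vector without (grey) and with (orange) induction. Bars are 95% intervals and filled points passed an adjusted p of 0.05. COL8A1 and LOX moved in both kinds of cell on the left, and FN1, FBN1, COL6A1, LOXL2 and TGM2 in both states on the right.

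LOX (chr5:121398890-121414108, minus strand) is the founding lysyl oxidase. It was at 69.09, 68.51 and 54.11 CPM in vector EtOH and at 25.42, 38.58 and 32.1 CPM in vector Dox. JUN cells held it at 91.32, 79.77 and 71.15 CPM in EtOH and at 42.54, 45.25 and 41.29 CPM in Dox. Both Dox groups lay below both EtOH groups. YAP5SA lowered LOX in vector cells (log2 -0.997, SE 0.15, adjusted p = 0.000117) and in JUN cells (log2 -0.91, SE 0.14, adjusted p = 0.000412), and the interaction was 0.09 on the log2 scale (95% interval -0.35 to 0.52, adjusted p = 0.972). LOX rose with JUN under induction by 1.34-fold (log2 0.43, SE 0.15, adjusted p = 0.0341), a call that was lost with only the libraries of the comparison, with the GC trend removed and without vector Dox replicate 1 or 3 or JUN Dox replicate 1 or 2, at an adjusted p of at most 0.111. Without induction the difference was 0.34 (adjusted p = 0.0731).

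LOXL2 (chr8:23154410-23282841, minus strand) is a lysyl oxidase-like enzyme with scavenger receptor domains that acts on basement membrane and fibrillar collagen. Its libraries gave 75.55, 70.51 and 77.45 CPM in vector EtOH and 85.81, 120.8 and 110.2 CPM in vector Dox. JUN cells gave 195.4, 169.7 and 197.2 CPM in EtOH and 161.4, 180.7 and 177.9 CPM in Dox. The 2 JUN groups overlapped each other and stood above the vector groups, which were themselves apart. LOXL2 rose with JUN 2.52-fold without induction (log2 1.33, SE 0.12, adjusted p = 1.05e-06) and 1.64-fold with it (log2 0.715, SE 0.12, adjusted p = 0.00031). YAP5SA raised it 1.42-fold in vector cells (log2 0.50, SE 0.12, adjusted p = 0.00497) and gave -0.11 in JUN cells (95% interval -0.36 to 0.14, adjusted p = 0.557). The interaction of -0.62 (95% interval -0.97 to -0.26) had an adjusted p of 0.115 and was called under DESeq2 and without vector Dox replicate 1.

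Transglutaminase 2 (TGM2, chr20:36755787-36794980, minus strand) crosslinks matrix proteins and also binds fibronectin and integrins at the cell surface. It was at 24.45, 18.71 and 25.89 CPM in vector EtOH and 34.84, 40.11 and 40.48 CPM in vector Dox. With JUN it was at 153.2, 94.81 and 134.4 CPM in EtOH and 99.23, 109.8 and 134.6 CPM in Dox. As for LOXL2, the JUN groups overlapped each other and lay above the vector groups. JUN raised TGM2 5.53-fold without induction (log2 2.47, SE 0.18, adjusted p = 1.08e-07) and 2.98-fold with it (log2 1.57, SE 0.17, adjusted p = 6.44e-06). The YAP5SA effect was 1.67-fold in vector cells (log2 0.74, SE 0.17, adjusted p = 0.00473) and -0.15 on the log2 scale in JUN cells (95% interval -0.51 to 0.20, adjusted p = 0.572). The interaction was -0.89 (95% interval -1.40 to -0.38, adjusted p = 0.109), called under DESeq2 and without JUN EtOH replicate 2.

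COL5A1 (chr9:137533649-137736689, plus strand), a collagen V chain that nucleates collagen I fibrils, and LOXL4 (chr10:100007447-100027951, minus strand), another lysyl oxidase-like enzyme, did not pass the filter. COL5A1 had counts of 1, 2 and 1 in vector EtOH and of 3, 2 and 4 in vector Dox. In JUN cells it had 0, 3 and 0 counts in EtOH and a single read in each Dox library. LOXL4 had 2, 0 and 0 counts in vector EtOH against 7, 5 and 8 in vector Dox. JUN cells held 4, 3 and 2 counts in EtOH and 0, 0 and 1 in Dox. A count of 3 or fewer, which was 0.107 to 0.15 CPM in these libraries, was taken as the floor, so that only vector Dox held LOXL4 above it in every library. With no filter, 20316 genes entered the fit and LOXL4 was called higher with YAP5SA in vector cells (adjusted p = 0.0279) and lower with JUN under induction (adjusted p = 0.0102). At 8 counts or fewer per library its fold change is not given.

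Of the 8 members tested, 4 were called higher and 1 lower with YAP5SA in vector cells, where 15.6% and 14.4% of all genes tested were. In JUN cells the counts were 1 higher and 2 lower, against 11.2% and 10.3% of all genes. With the JUN vector, 5 were higher and 1 lower without induction (20.1% and 18.9% of all genes), and 6 higher and 1 lower with it (18.4% and 17.2%). The median log2 fold change of the 8 was 0.19, -0.29, 1.33 and 0.94 in these comparisons. The 4 comparisons share their groups in pairs and are not independent of one another. COL8A1 and COL12A1 are in the study's list of genes most induced by YAP, which came from a separate sequencing experiment on the inducible cells. Within that list both stand in the second of the study's clusters, and the clusters, unlike the list, were drawn on these 12 libraries and are no independent evidence of how the genes respond to JUN. For the second cluster as a whole the study describes little or no effect of JUN overexpression. COL8A1 differed from that description here, at log2 -1.56 with JUN under induction and -1.01 in the interaction. COL12A1, at log2 -0.23 with JUN under induction, was not called.

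The order of the levels of a gene over the groups can be read from the same fit with the 2 comparisons across both factors added. FBN1 was highest in JUN EtOH, while FN1 was not told apart between the 2 JUN groups, and both genes were higher in JUN Dox than in vector EtOH by log2 2.43 and 2.53 (SE 0.22 and 0.17, adjusted p = 5.06e-07 and 2.05e-08), with both vector groups lowest and not told apart. COL6A1 likewise had its JUN groups above its vector groups and no call within either pair. For TGM2 and LOXL2 the order was vector EtOH, vector Dox, then both JUN groups, which did not differ beyond their spread. LOX ran from vector Dox through JUN Dox (the pair with the unsteady call) and vector EtOH to JUN EtOH, the last 2 not told apart. COL12A1 gave a call only between vector EtOH and vector Dox, and JUN Dox against vector EtOH had an adjusted p of 0.0586.

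Scaled to exon length, which allows a rough comparison of different genes, LOXL2 and LOX led in vector EtOH at 12.4 ± 0.6 and 11.4 ± 1.52 CPM per kb (SD, n = 3). COL12A1, COL8A1, TGM2 and FN1 followed at 3.68, 3.55, 2.9 and 2.63 CPM per kb, with COL6A1 at 0.862 and FBN1 at 0.14. In vector Dox COL8A1 was at 20.6 ± 4.66 and LOXL2 at 17.6 ± 3 CPM per kb. JUN EtOH libraries had LOXL2 at 31.3 ± 2.56, FN1 at 20.6 ± 3.4, TGM2 at 16 ± 3.75 and LOX at 14.4 ± 1.81 CPM per kb, and LOXL2 was again highest in JUN Dox at 29 ± 1.74. The reads were aligned without splitting them over introns, which lowers the level of genes with many short exons in all libraries alike, and the order between genes is limited by this. The exon length joins the exons of all annotated transcripts of a gene. It can exceed the length of the RNA expressed, by more in some genes than in others, which limits the order too.

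Over the 12 libraries the members were set side by side as centred log2 CPM, with the root mean square difference between profiles as the measure of likeness. The closest pair among the 8 was FN1 and FBN1, 0.243 apart, followed by COL6A1 and LOXL2 at 0.372. Distances on this measure tend to be smaller for genes that vary little. A profile's own root mean square about its mean was 1.491 for FN1 and 1.426 for FBN1. It was 0.664 for COL6A1, 0.558 for LOXL2 and, lowest of the 8, 0.451 for COL12A1. FN1 and COL8A1 were farthest apart at 2.34.

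**Figure D3:**
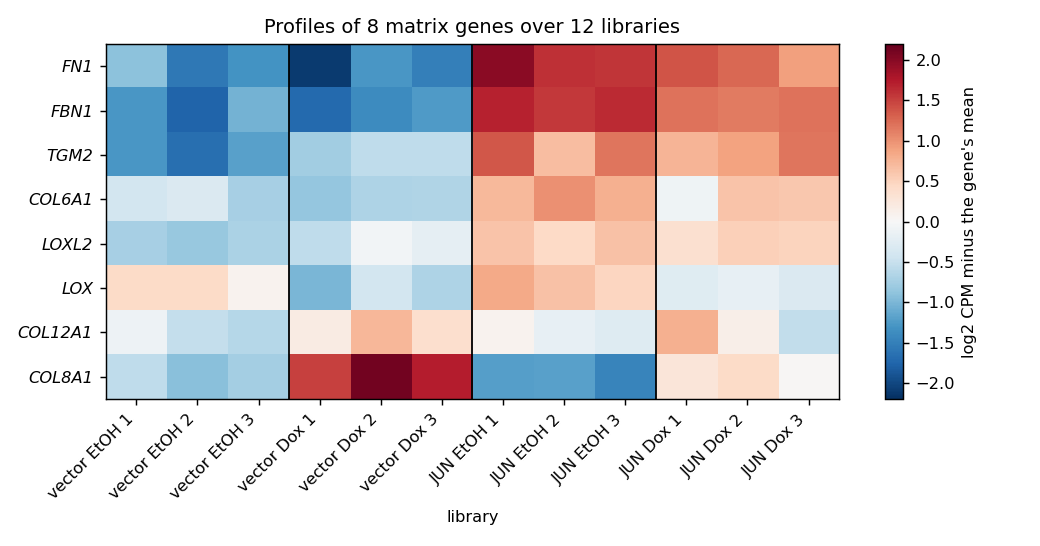
Centred log2 CPM (colour scale) of 8 matrix genes (rows) in the 12 libraries (columns, grouped). FN1, FBN1 and TGM2 are red in all 6 JUN libraries and blue in all 6 vector libraries, while COL8A1 is reddest in the 3 vector Dox libraries.

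Among all genes averaging 5 CPM or more, CNTNAP1, a neuronal adhesion protein, was nearest to FN1 at 0.269, and the small GTPase gene RRAS nearest to COL6A1 at 0.172. PLEKHA1, a phosphoinositide-binding adaptor, was nearest to COL12A1 at 0.199, the autophagy kinase ULK1 to LOX at 0.122 and the microtubule protein MAP1B to TGM2 at 0.19. ULK1 ran at 19.5, 9.953, 25.3 and 13.9 CPM and MAP1B at 6.004, 9.826, 33.1 and 33.65 CPM in the groups in the order used above.

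For the other 3 members the nearest row was a non-coding gene. LOXL2-AS1, 0.086 from LOXL2, lies antisense to it with 178 bases of exon in common, and its count was 0.0926 to 0.115 of that of LOXL2 in every library. Since no use of strand is stated, reads of the pair cannot be told apart. The row of the microRNA gene MIR548G, 0.077 from COL8A1, held 1.7 to 2.04 times the count of COL8A1 in all 12 libraries. RefSeq places MIR548G on chromosome 4 and COL8A1 on chromosome 3. GENCODE also has a microRNA gene, AC055723.1, on the strand opposite to COL8A1, with 92 bases of exon in common. The span that the authors counted for the MIR548G row is not given in the sources used here. Whether that row covers AC055723.1 or shares reads with COL8A1 was not tested. MIR548F5 was nearest to FBN1 at 0.251. Poly(A) libraries of 75-base reads do not measure mature microRNAs, and these rows are given only as rows.

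Some members share exon sequence with protein-coding neighbours, and their values are to that extent uncertain. LOX shares 138 bases with SRFBP1 on the other strand, LOXL2 shares 120 bases with ENTPD4 on its own strand, and TGM2 shares 396 bases with RPRD1B on the other strand. The neighbours were read at a mean of 506.6, 1214 and 881.8 counts, against 1263, 3126 and 1764 for the members. SRFBP1 was higher with YAP5SA in JUN cells (log2 0.45, SE 0.12, adjusted p = 0.0124), where LOX was lower. ENTPD4 was higher with JUN at log2 0.63 without and 0.44 with induction (adjusted p = 0.00126 and 0.0134). RPRD1B was not called in any of the 4 comparisons, at log2 0.03 to 0.21.

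The other matrix genes were taken from 5 lists of collagens, crosslinkers, glycoproteins of fibres, collagen-processing proteins, and receptors of fibronectin and collagen. The counts below stand beside these shares of all genes tested. With YAP5SA 15.6% were higher and 14.4% lower in vector cells, and 11.2% and 10.3% in JUN cells. With JUN 20.1% were higher and 18.9% lower without induction, and 18.4% and 17.2% with it. No list was tested as a set against these shares. Of 40 other collagens 17 were tested, 5 higher and 6 lower with YAP5SA in vector cells, and 5 higher and 4 lower with JUN without induction, with medians of 0.10 and 0.38 (log2). The 5 higher with YAP5SA were COL4A1, COL9A2, COL13A1, COL18A1 and COL27A1, named here, as are the next genes, after their values were seen. COL9A2 averaged 0.0615 CPM in vector EtOH, under the floor. The 5 that rose with JUN without induction were the collagen IV chains COL4A1, COL4A2, COL4A5 and COL4A6 (log2 0.40, 0.32, 0.71 and 0.46) and the hemidesmosomal COL17A1 (1.33). The 4 lower there were COL6A3, COL7A1, COL18A1 and COL27A1 (log2 -0.93, -1.22, -0.6 and -0.78). With JUN under induction COL4A1 and COL4A2 were not called (log2 -0.24 and 0.07). In JUN cells YAP5SA gave 3 higher and 4 lower, and JUN under induction 4 higher and 1 lower, the 1 being COL18A1 (-0.69).

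Among 10 other crosslinkers 7 were tested. With YAP5SA in vector cells 4 were higher (LOXL3, TGM1, F13A1 and PXDN) and 1, LOXL1, lower (median 0.92), and in JUN cells 3 were higher and 0 lower (median 0.72), 10.3% of all genes tested being lower there. JUN gave 2 higher (LOXL1 and PXDN) and 4 lower (LOXL3, TGM1, TGM3 and F13A1) in both states, with medians of -0.73 and -0.70. TGM3 and F13A1 averaged 0.1031 and 0.1069 CPM in JUN EtOH, at the level of the floor. PXDN, the peroxidase that makes sulfilimine bonds in collagen IV, rose with JUN without induction (log2 2.29, SE 0.15, adjusted p = 5.96e-08), and its interaction was -1.01 (SE 0.21, adjusted p = 0.0262). LOXL3 rose with YAP5SA in JUN cells (log2 1.00, SE 0.13, adjusted p = 8.24e-05), opposite to LOX. TGM1, the keratinocyte transglutaminase, was lower with JUN under induction (log2 -1.64, SE 0.12, adjusted p = 1.73e-07), opposite to TGM2.

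Of 41 fibre glycoproteins 28 were tested, and with JUN 10 were higher and 5 lower without induction and 12 higher and 3 lower with it, while YAP5SA gave 3 higher and 10 lower in vector cells and 2 higher and 6 lower in JUN cells. Their medians were 0.54, 0.39, -0.37 and -0.20. Periostin (POSTN), a matricellular protein that binds fibronectin and collagen, rose with JUN by log2 4.27 (SE 0.30, adjusted p = 1.01e-07) without and 4.79 (SE 0.31, adjusted p = 3.78e-08) with induction. It averaged only 0.7 and 0.58 CPM in vector EtOH and Dox, against 13.6 and 16.2 CPM in JUN EtOH and Dox. ECM1 rose with JUN by log2 1.97 without and 2.18 with induction. The TGF-β binding protein LTBP1 rose by 2.45 (SE 0.12, adjusted p = 1.95e-09) with JUN under induction. It was the list's 1 gene called in the interaction (log2 0.84, SE 0.16, adjusted p = 0.0151). EFEMP1, a fibulin, rose with YAP5SA in vector cells (1.10) and fell with JUN by 1.53 and 2.07 on the log2 scale. Tenascin-C (TNC) fell by 1.39 with YAP5SA in vector cells and LTBP3 fell by 1.36 with JUN without induction.

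Of 30 genes of collagen processing and secretion 26 were tested, with 12 higher and 2 lower with JUN without induction and 11 higher and 3 lower with it. YAP5SA gave 5 higher and 6 lower in vector cells and 4 higher and 4 lower in JUN cells. The medians were 0.37, 0.25, 0.00 and -0.05. PLOD2, which hydroxylates lysines of collagen telopeptides and so sets the kind of crosslink that lysyl oxidases form, rose with YAP5SA in vector cells (log2 1.24, SE 0.12, adjusted p = 2.57e-06) and in JUN cells (1.09, SE 0.12, adjusted p = 1.59e-05). CREB3L2, a transcription factor of secretory cells, rose by 1.13 in vector cells. The prolyl 3-hydroxylase P3H2 fell with JUN by 1.84 without and 1.81 with induction on the log2 scale, and rose by 0.65 with YAP5SA in JUN cells (adjusted p = 0.00181).

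Of 17 receptors 16 were tested, and with JUN 9 were higher and 1 lower without induction and 8 higher and 3 lower with it. YAP5SA gave 2 higher and 7 lower in vector cells and 0 higher and 9 lower in JUN cells. Medians were 0.85, 0.62, -0.19 and -0.57. ITGA5, the α chain of the main fibronectin-assembling integrin, fell with YAP5SA in vector cells (log2 -1.32, SE 0.15, adjusted p = 1.31e-05). ITGB6 fell with YAP5SA in vector cells and in JUN cells (log2 -1.63 and -1.09), and ITGB8 in JUN cells (-2.13, SE 0.25, adjusted p = 3.17e-05). The syndecan SDC4 fell in JUN cells (-0.90) and had a negative interaction (-1.11, SE 0.20, adjusted p = 0.0103).

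**Figure D4:**
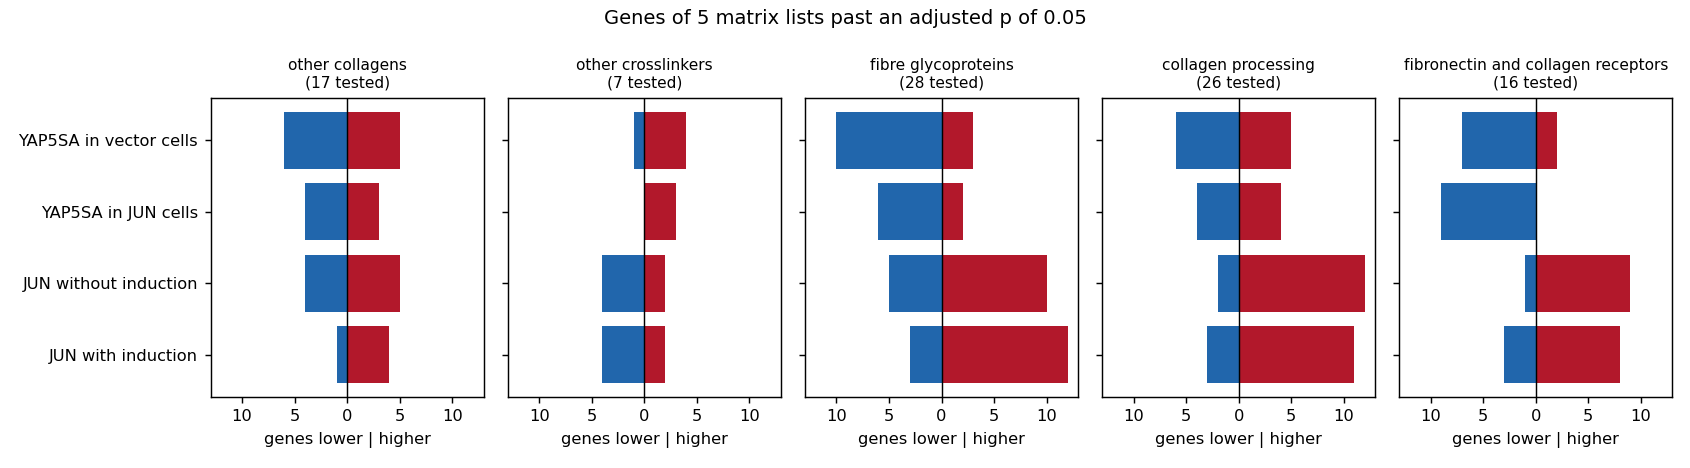
Number of genes past an adjusted p of 0.05 (horizontal axis, lower to the left in blue, higher to the right in red) in 5 matrix lists, for the 4 comparisons (rows). Among 16 receptors tested, 9 were higher and 1 lower with JUN without induction, and 9 were lower and 0 higher with YAP5SA in JUN cells. Of all genes tested, 20.1% were higher and 18.9% lower in the first of these comparisons, and 10.3% lower and 11.2% higher in the second.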

How the data were processed

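For 12 libraries the authors deposited unnormalised counts, 1 row for each Entrez gene. Per the study's methods, poly(A) RNA was read in single 75-base reads, trimmed with Cutadapt (version 4.2 in the submitters' processing notes), aligned to hg19 with Bowtie2 (2.3.5.1 there) at default settings, which does not split reads over introns, and counted with countOverlaps. Annotation and strand are not given in the sources used here.

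The 12 columns each matched 1 sample by title. RefSeq gave a symbol for 99.4% of the IDs, and GENCODE v44lift37 on GRCh37, the assembly of hg19, the positions and exon lengths. Genes were filtered with filterByExpr (minimum count 10, minimum total count 15) and tested with edgeR 4.0.16 under R 4.3.3 (TMM, robust quasi-likelihood fit, group as the only term, Benjamini-Hochberg adjustment over all genes tested). The biological coefficient of variation was 12.5%, and the script was tested on simulated data. Floors cover counting error only. The 19 alternatives were DESeq2 1.42.0, 2 other scalings, no filter, only the libraries compared, a replicate block, removal of the GC trend and leaving out each of the 12 libraries. The members and lists were chosen with earlier results of these data known. Beyond the members, the text names JUN and YAP1, the 3 highest and 3 lowest called list genes per comparison with a mean of at least 5 CPM, the nearest profile of each member and genes sharing exons with one, and others where said.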

Additional observations from a re-analysis of the deposited data

Results flagged for a closer look

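The effect of YAP5SA on COL8A1 differed between vector and JUN cells by the interaction test, at a log2 value of -1.008 (edgeR quasi-likelihood test, adjusted p = 0.0361). The induction was smaller in JUN cells in every one of the 18 alternatives run for the interaction. The call was lost in 8 of them, each of which left out 1 library, at an adjusted p of at most 0.117. Groups of 3 libraries are too small for the test of single outlying libraries, which was not run.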

How the results depend on the processing

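Over the 8 members and 4 pairwise comparisons, 578 of 608 alternative values kept direction and call, 17 lost the call, 8 gained one and 5 changed sign, none of the 5 called. For the interaction the numbers were 129 of 144, 8, 4 and 3. Leaving out 1 library at a time, the values that changed sign ran from -0.296 to 0.0423 for FBN1 and, in JUN cells, from -0.327 to 0.000452 for TGM2 and -0.0489 to 0.615 for COL12A1 under YAP5SA, from -0.613 to 0.0432 for COL12A1 with JUN under induction, and in the interaction from -0.0479 to 0.248 for LOX, -0.38 to 0.0156 for FN1 and -0.289 to 0.0373 for COL6A1. The number of members called lower then ran from 0 to 1 with JUN without induction, 1 to 3 with YAP5SA in JUN cells, 1 to 2 with JUN under induction and 0 to 2 in the interaction. With no filter 2 members were lower with JUN under induction, COL8A1 and the otherwise untested LOXL4, and DESeq2 called 3 members lower in the interaction, COL8A1, LOXL2 and TGM2. Over all genes DESeq2 called 108 higher and 232 lower in the interaction, against 43 and 122, and leaving out 1 library gave 21 to 76 higher and 71 to 184 lower. Fits that leave out 1 library have fewer libraries and the fit with no filter has more genes, and the cause of these changes was not tested.

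The main fit did not pair libraries by replicate number. Over 18 pairs of same-numbered libraries the correlation of deviations ran from -0.258 to 0.466 (median 0.0875) and 7 were over 0.1. Over 36 pairs with other numbers it ran from -0.47 to 0.315 (median -0.0475) and 5 were over 0.1. Whether same-numbered libraries share a culture or a batch was not tested. A replicate block left the COL8A1 interaction at -0.994 on the log2 scale (adjusted p = 0.0358) and changed no member's call in the 5 comparisons, though it brought calls for COL12A1 between JUN Dox and vector EtOH and between JUN EtOH and vector Dox. The small number of libraries limits what differences could be seen for COL12A1, whose JUN Dox libraries ranged most widely, and at 4 counts or fewer per library no difference in COL5A1 was detectable.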
